A study of Homo sapiens with 4 samples.

Results

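Transcripts of 10 heat shock proteins, HSPA1A, HSPA1B, HSPA8, HSPA5, HSPH1, DNAJB1, HSP90AA1, HSP90AB1, HSPD1 and HSPB1, were followed in SW1990 and PANC-1 pancreatic cancer cells with and without X-ray radiation. The members were picked by gene symbol, and all 10 of them were found among the 58174 genes of the expression table. RNA of the 2 established human lines was sequenced from unirradiated cells (0 Gy) and from cells given 10 Gy, each condition in 1 library, which makes 4 libraries, to see how transcripts differ after radiation in either line. The labels name no genetic change in either line, and each line was grown in its own medium (DMEM for PANC-1, 1640 for SW1990, both with serum), so that line and medium cannot be told apart. The time between radiation and RNA collection is not given in the sources used here. Total counts of the unirradiated and the irradiated library were 17939210 and 18388969 for SW1990, and 23451153 and 20154644 for PANC-1. With 1 library per condition, a difference between treatments within a line has no replicate check, and the intervals given below (95%, exact Clopper-Pearson) cover counting error only. In such bulk RNA, fewer cells expressing a gene and less RNA per cell cannot be told apart.

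Heat shock proteins are chaperones that bind unfolded or newly made proteins and keep them from aggregating. The HSP70 proteins work in cycles with J-domain proteins, which deliver the client, and with nucleotide exchange factors, which release it, and HSP90 proteins then take up a narrower set of clients such as kinases and steroid receptors. When unfolded protein accumulates in the cytosol, the transcription factor HSF1 binds heat shock elements, inverted repeats of GAA units, while unfolded protein in the endoplasmic reticulum (ER) activates a separate response that acts on HSPA5 and other ER chaperone genes.

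Both kinds of element were looked for in the 250 bases before the start sites of the members (RefSeq, GRCh38.p14, 16 start sites for the 10 genes, both strands). The 5 stretches below, each the 130 bases before a start site, are shown because they set the inducible HSPA1A and HSPA1B beside the constitutive HSPA8, the stress-responsive HSP90AA1 and the ER member HSPA5. Capitals mark GAANNTTC in HSPA1A and HSPA1B, the 3-unit element TTCNNGAANNTTC in HSPA8 and HSP90AA1, and the ER stress element, CCAAT and CCACG separated by 9 bases, in HSPA5.
HSPA1A, chr6:31815413-31815542, plus strand: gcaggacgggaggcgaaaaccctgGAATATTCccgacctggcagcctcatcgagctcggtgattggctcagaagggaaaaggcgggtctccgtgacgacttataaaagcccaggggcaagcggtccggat
HSPA1B, chr6:31827608-31827737, plus strand: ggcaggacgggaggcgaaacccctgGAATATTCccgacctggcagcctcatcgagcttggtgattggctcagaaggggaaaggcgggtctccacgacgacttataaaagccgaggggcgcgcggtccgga
HSPA8, chr11:123062137-123062266, minus strand: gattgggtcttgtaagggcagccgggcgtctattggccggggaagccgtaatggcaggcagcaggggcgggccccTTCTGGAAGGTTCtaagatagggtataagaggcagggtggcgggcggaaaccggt
HSP90AA1, chr14:102087045-102087174, minus strand: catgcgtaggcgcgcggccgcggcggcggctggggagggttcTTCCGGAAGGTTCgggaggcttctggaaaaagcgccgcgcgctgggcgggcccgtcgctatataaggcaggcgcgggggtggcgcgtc
HSPA5, chr9:125241344-125241473, minus strand: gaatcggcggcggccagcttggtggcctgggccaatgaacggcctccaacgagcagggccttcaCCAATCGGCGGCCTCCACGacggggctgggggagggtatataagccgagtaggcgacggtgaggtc

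GAANNTTC, the pair of facing units, was found at 8 of the 16 start sites (50%), against 5.78% of 35116 promoters. Counted by gene, with a match at any start site, it was found in 8 of the 10 members (all but HSPA5 and HSPH1) and in 7.05% of 27305 genes. The 3-unit form, GAANNTTCNNGAA or its reverse complement TTCNNGAANNTTC, which contains that pair, was found at 4 of the 16 start sites, those of HSPA8, HSP90AA1, HSP90AB1 and HSPD1, against 0.441% of promoters (0.557% of genes). HSPA5 was the only member with the ER stress element, which began 66 bases before its start and was present in 0.074% of promoters. TATAAA was found in HSPA1A and HSPA1B, beginning 30 and 29 bases before the start, and in 10.7% of promoters. The HSPA1A and HSPA1B promoters were 93.6% identical over their 250 bases. These matches describe letters in a window, and which start site the cells used is not known from the table.

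The samples carried epithelial keratins. KRT8 was at 1352 and 1888 FPKM in SW1990 cells without and with radiation and at 786 and 851 in PANC-1 cells (FPKM, the authors' expression value scaled to transcript length and library size). KRT18 and KRT19 were at 146 FPKM or more in every library, whereas KRT7 was at 5.02 to 6.35. The lines differed in other markers, with EPCAM at 217 and 218 FPKM in SW1990 against 2.28 and 2.81 in PANC-1, and VIM at 0.626 and 0 against 1627 and 1650. CDH1 was at 140 and 239 FPKM in SW1990 and at 0.673 and 1.21 in PANC-1. Of the other mesenchymal markers, ZEB1 was at 0.314 and 1.33 against 17.4 and 17.4. CDH2 was at 0 and 0.0412 against 2.79 and 2.92, and FN1 was below 1 FPKM in every library. Markers of leukocytes (PTPRC, CD3E), endothelial cells (PECAM1, CDH5, VWF), acinar cells (PRSS1, CPA1, AMY2A) and endocrine cells (INS, GCG, SST) were below 1 FPKM in every library. CD68, listed with the leukocyte markers, reached 18.8 and 13.9 FPKM in PANC-1. Of the fibroblast markers, COL1A1 was at 1.4 and 2.85 FPKM in SW1990 and at 8.44 and 11 in PANC-1, PDGFRB was at 1.56 and 1.03 in SW1990 and at 0 and 0.127 in PANC-1, and DCN was at 0 in every library. Whether these markers bear on the results was not tested.

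The chaperones were among the most abundant transcripts of both lines. HSPA8, the constitutive cytosolic HSP70, led in every library and ranked between 25 and 35 among all genes by FPKM. The 10 members together made up 0.755% and 0.766% of the summed FPKM of SW1990 cells without and with radiation, and 0.446% and 0.521% in PANC-1 cells. Most of this came from HSPA8, HSP90AA1 and HSP90AB1, which alone held 0.554%, 0.567%, 0.309% and 0.38% in the same order. At the lower end, DNAJB1 and HSPA1A were lowest in SW1990, and HSPH1 was lowest in PANC-1, where it ranked 1983 and 1477 among all genes. The order of neighbouring members could not be tested with 1 library each.

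After radiation, the inducible HSP70 genes were higher and the ER chaperone HSPA5 was lower in PANC-1 cells. In SW1990 cells, every member stayed between -0.20 and 0.20 on the log2 scale with TMM scaling. HSPA1B there had -0.23 with total counts and -0.22 on FPKM. No member passed the 2-fold limit (0 of 10 in each line), where the call also asked for a q-value below 0.001 in a comparison of the reads of 2 libraries. The background was 4.13% of 15731 genes in SW1990 and 4.7% of 15159 genes in PANC-1. With the limit at 1.5-fold, 0 of 10 members passed in SW1990 (background 9.26%) and 3 of 10 passed in PANC-1 (background 11.7%). The 3 were HSPA1A and HSPA1B upward and HSPA5 downward. HSPA1A and HSPA1B share most of their sequence and are not separate evidence in this share. The members were also chosen with earlier results of these data known. Had biological replicates varied with a coefficient of variation of 0.1 or 0.4, an assumption made after seeing the data, 2 or 0 of the members would have passed in PANC-1. Among the tenth of genes with the highest levels, which held 9 of the 10 members in each line, the share past 1.5-fold was 5.46% in SW1990 and 6.4% in PANC-1. The calls compare the libraries and not the conditions. The PANC-1 calls beyond 2-fold split into 360 higher and 352 lower genes with TMM scaling (50.6% higher), and into 61.7% and 60.7% higher with total counts and with FPKM.

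HSPA1A and HSPA1B encode nearly the same stress-inducible HSP70 and lie next to each other on chromosome 6 (GRCh38, plus strand, 31815464 to 31817946 and 31827735 to 31830255). HSPA1A was at 48.9 and 43.6 FPKM in SW1990 cells without and with radiation and at 41.7 and 81.5 FPKM in PANC-1 cells. HSPA1B was at 91.8 and 79 FPKM in SW1990 and at 40.7 and 77.7 FPKM in PANC-1. Both genes were thus slightly lower after radiation in SW1990 and clearly higher in PANC-1. On TMM-scaled counts, HSPA1A had a log2 fold change of -0.14 (-0.22 to -0.06) in SW1990 and 0.89 (0.83 to 0.96, or 1.86-fold) in PANC-1. HSPA1B had -0.20 (-0.26 to -0.14) and 0.85 (0.79 to 0.92, or 1.81-fold).

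How reads are divided between the 2 genes is uncertain, because their longest transcripts share an identical run of 1715 bases (88.7% identity over the alignment). Their counts were therefore also summed, which gave 7728 and 6858 counts in SW1990 and 5922 and 9908 in PANC-1. The sum moved as the single genes did, with a log2 fold change of -0.18 (-0.23 to -0.13) in SW1990 and 0.87 (0.83 to 0.92) in PANC-1. The ratio of HSPA1A to HSPA1B counts differed between the lines, at 0.518 and 0.538 in SW1990 and 0.995 and 1.02 in PANC-1, and hardly moved with radiation. HSPA6, an HSP70 gene that is nearly silent in unstressed cells, had 13 and 13 counts in SW1990 and 25 and 25 in PANC-1, under 0.5 FPKM in each library, and is named here after its values were seen.

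HSPA5 (BiP), the HSP70 of the ER lumen, lies on chromosome 9 (125234853 to 125241330, minus strand). It was at 162 and 162 FPKM in SW1990 cells without and with radiation and at 264 and 145 FPKM in PANC-1 cells. Unirradiated PANC-1 was the high library, and the irradiated one came down to the SW1990 level. The log2 fold change was 0.02 (-0.01 to 0.06) in SW1990 and -0.94 (-0.97 to -0.92, or 0.52-fold) in PANC-1, the lowest of the members, and the value in SW1990 turned to -0.01 with total counts. From counts of 29727 and 14112 in PANC-1, counting error is small beside this change, but variation between cultures was not measured.

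HSPA8, which serves housekeeping folding and clathrin uncoating, lies on chromosome 11 (123057489 to 123063230, minus strand). Its levels were 1275 and 1365 FPKM in SW1990 and 793 and 1119 FPKM in PANC-1. Irradiated PANC-1 cells thereby came closer to SW1990 cells, with log2 fold changes of 0.07 (0.05 to 0.08) in SW1990 and 0.38 (0.36 to 0.40) in PANC-1. HSPH1 (HSP110), a nucleotide exchange factor for HSP70 on chromosome 13 (31134974 to 31162388, minus strand), was at 106 and 106 FPKM in SW1990 and at 35.4 and 45.4 FPKM in PANC-1. Its log2 fold change was 0.00 (-0.05 to 0.04) in SW1990 and 0.36 (0.29 to 0.42) in PANC-1.

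DNAJB1 (HSP40), the J-domain partner of cytosolic HSP70, lies on chromosome 19 (14514770 to 14529770, minus strand). It was at 46.6 and 48.5 FPKM in SW1990 and at 67.8 and 92.8 FPKM in PANC-1. DNAJB1 had log2 fold changes of 0.20 (0.11 to 0.28) in SW1990 and 0.30 (0.24 to 0.36) in PANC-1. The value in SW1990 was 0.17 with total counts and 0.06 on FPKM. The gene overlaps TECR on the other strand, and whether the counting used strand is not given in the sources used here.

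The cytosolic HSP90 genes moved little. HSP90AA1, the more stress-responsive of the pair (chromosome 14, 102080738 to 102139699, minus strand), was at 853 and 765 FPKM in SW1990 and at 231 and 259 FPKM in PANC-1, with log2 fold changes of -0.09 (-0.11 to -0.08) and 0.15 (0.12 to 0.18). HSP90AB1, the constitutive form (chromosome 6, 44246166 to 44253888, plus strand), was at 825 and 873 FPKM in SW1990 and at 648 and 683 FPKM in PANC-1. Its log2 fold change was 0.10 (0.08 to 0.12) in SW1990 and 0.00 (-0.02 to 0.02) in PANC-1, where it became 0.09 with total counts.

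HSPD1 (HSP60), the chaperonin of the mitochondrial matrix, lies on chromosome 2 (197486581 to 197516737, minus strand) and overlaps its partner HSPE1 on the other strand. It was at 333 and 356 FPKM in SW1990 and at 221 and 212 FPKM in PANC-1, with log2 fold changes of 0.08 (0.05 to 0.11) and -0.02 (-0.06 to 0.02). The sign in PANC-1 turned with total counts (0.07). Up to 2.84% of the reads named for HSPD1 or its pseudogenes lay on 15 pseudogene rows, against at most 0.756% for any other member. HSPB1 (HSP27), a small heat shock protein that holds unfolded clients without ATP, lies on chromosome 7 (76302544 to 76304295, plus strand). It was at 283 and 258 FPKM in SW1990 and at 72 and 109 FPKM in PANC-1, lower after radiation in the first line and higher in the second. The log2 fold changes were -0.11 (-0.16 to -0.05) and 0.48 (0.39 to 0.56), and 0.60 on FPKM in PANC-1.

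Across the 10 members, log2 fold changes had a median of 0.01 in SW1990 and 0.33 in PANC-1, against -0.01 and -0.02 over all genes tested. In PANC-1, 7 of 10 were higher in the irradiated library with TMM scaling and 9 of 10 with total counts, which turned HSP90AB1 and HSPD1 and moved the median of all genes from -0.02 to 0.07 (8755 of 15159 genes higher, against 7321 with TMM), whereas HSPA5 was lower under every scaling. In SW1990, 5 of 10 were higher with TMM scaling and 4 to 6 of 10 with the others. In a joint model of the 4 libraries that also held the line (quasi-likelihood test of edgeR, adjusted after Benjamini-Hochberg), in which the lines stand as replicates, 0 of 10 members were called for radiation, and the background was 0%, with 0 of 18180 genes called. Unadjusted, 877 genes (4.82%) had a p below 0.05, none of them a member, and DESeq2's Wald test called 38 genes. The adjusted p of the members lay between 0.942 and 0.991 in edgeR's test. The fit had 1 residual degree of freedom and a common coefficient of variation of 0.219, which corresponds to an SD of 0.45 for the log2 ratio of 2 libraries and includes responses that differ between the lines. In PANC-1, HSPA1A, HSPA1B and HSPA5 moved by more than this SD under every scaling. The share of all genes that did so was not counted, so the SD sets no member apart from other genes. HSPB1 exceeded it with TMM scaling (0.48) but stood at 0.45 with DESeq2 size factors, and HSPA8 exceeded it with total counts (0.47) and on FPKM (0.50) but not with TMM scaling (0.38).

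The same model also compared the lines. HSP90AA1, HSPB1 and HSPH1 were higher in SW1990 and DNAJB1 was higher in PANC-1, so that 4 of 10 members were called in the comparison of the lines, against a background of 44.7% of 18180 genes. The share of members called is thus near that of all genes. HSP90AA1 was 2.9-fold higher in SW1990 (log2 difference 1.54, adjusted p = 0.00166 by edgeR's quasi-likelihood test, Benjamini-Hochberg adjusted). HSPB1 was 2.65-fold higher (1.41, adjusted p = 0.00372) and HSPH1 2.5-fold higher (1.32, adjusted p = 0.00262) in the same test. DNAJB1 was 1.95-fold lower (-0.96, adjusted p = 0.00495). In each of these genes both libraries of one line lay above both of the other.

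HSPA8 and HSPD1 were also higher in SW1990 in both treatments, by 0.45 and 0.38 on the log2 scale, but missed the threshold in edgeR's test (adjusted p = 0.0715 and 0.0801) and passed it in DESeq2 (adjusted p = 0.00478 and 0.00273). HSP90AB1 differed by 0.18 (adjusted p = 0.385 in edgeR's test). For the HSPA1 genes and HSPA5, the line difference was not alike in the 2 treatments, which was not tested with 1 library each. HSPA1B was 0.94 higher on the log2 scale in SW1990 without radiation and -0.09 with it, HSPA1A went from 0.00 to -1.01, and HSPA5 from -0.94 to 0.05. Averaged over treatments, their adjusted p in edgeR's test was 0.248, 0.174 and 0.223. Among HSP90 paralogs and co-chaperones, 8 of 14 genes were called higher in SW1990 and 0 lower (median 0.58), beside 3965 higher and 4159 lower among all genes. The other lists had 0 higher and 4 lower of 9 HSF factors and regulators, and 0 and 3 of 15 chaperonin and prefoldin genes. These 3 were the prefoldin genes VBP1, PFDN5 and PFDN2, named after their values were seen. The counts were 4 and 6 of 22 other J-domain genes, and 4 and 1 of 12 mitochondrial chaperone and protease genes. There were 2 higher and 2 lower both among 10 other HSP70 and HSP110 genes and among 12 exchange factors and partners. The rest were 1 and 1 of 2 genes listed with the small heat shock proteins, and 3 and 2 of 20 ER genes. No difference between these lists and all genes was tested.

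The genes around the chaperone cycle are given here against the shares of all genes past 1.5-fold, 9.26% in SW1990 and 11.7% in PANC-1. Of 11 other HSP70 and HSP110 genes, 7 were tested in each line and 0 passed 2-fold, while 3 were lower past 1.5-fold in PANC-1: HYOU1 and HSPA9, described below, and HSPA13 (-0.67), named after its value was seen. The 3 became 2 with total counts, where HSPA13 had -0.58, and 2 on FPKM, where HSPA9 had -0.55. Of 9 regulators of HSF1 and HSF factors, 0 passed 1.5-fold in either line, with medians of -0.09 in SW1990 and -0.14 in PANC-1. HSF1 itself had log2 fold changes of 0.07 and -0.03 and EEF1A1, the list's most abundant gene, -0.13 and -0.11 on counts and -0.52 and 0.11 on FPKM. YWHAG, a 14-3-3 protein gene, had 0.09 and -0.14. Of the other J-domain genes, 21 were tested in each line and 1 passed 2-fold. This was DNAJB5, which fell in PANC-1 (3.02 and 1.53 FPKM, log2 fold change -1.20 on counts and -0.98 on FPKM, short of 2-fold) and was below the level tested in SW1990. At 1.5-fold, the J-domain calls were 1 higher (DNAJA4, 0.60) and 1 lower (DNAJA3, -0.64) of 21 in SW1990, and 1 higher (DNAJC9, 0.65) and 2 lower (DNAJB2, -0.68, and DNAJB5) of 21 in PANC-1. On FPKM, DNAJC9 (0.57) and DNAJB2 (-0.50) did not pass, and DNAJA4 did not with total counts (0.57). DNAJC10 had -0.01 in PANC-1 on counts, where it was not called, but -1.01 on FPKM (20.1 and 10 FPKM). DNAJA1, the abundant relative of DNAJB1, was at 53.2 and 62.6 FPKM in SW1990 and at 90.7 and 104 FPKM in PANC-1 (0.19 and 0.14). DNAJC8, the next of them by FPKM averaged over the 4 libraries, had -0.03 and -0.24. In PANC-1, DNAJB6 lay above DNAJC8 (96.8 and 84.6 FPKM against 65 and 57.8). BAG3, an exchange factor that HSF1 is known to drive, had 0.15 and 0.30. HSF1, BAG3, DNAJA4, DNAJA3, DNAJC9, DNAJB2, DNAJB6 and DNAJC10 are named after their values were seen.

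Among the 12 exchange factors and HSP70 partners, GRPEL2, an exchange factor of mitochondrial HSP70, passed 2-fold upward in SW1990 (5.99 and 10.3 FPKM, log2 fold change 1.04) and was lower in PANC-1 (10.8 and 6.97 FPKM, -0.75). On FPKM, the value for GRPEL2 in SW1990 was 0.78. At 1.5-fold, GRPEL2 was the only call of this list in SW1990, and in PANC-1 the calls were GRPEL2 and GRPEL1 (-0.88), both lower. The abundant BAG6 and ST13 had -0.34 and 0.11 in SW1990 and -0.19 and -0.18 in PANC-1, where BAG6 turned to 0.22 on FPKM. Of 14 HSP90 paralogs and co-chaperones, 0 passed 1.5-fold in either line, but PTGES3 (0.58) and CHORDC1 (-0.58) lay just short of it in PANC-1 and passed on FPKM (0.89 and -0.66). Both are named after their values were seen. STIP1, the adaptor between HSP70 and HSP90, had -0.08 and -0.04, with 0.16 on FPKM in PANC-1. The list of chaperonin and prefoldin genes had medians of 0.03 in SW1990 and -0.10 in PANC-1 over 15 genes. Its ranges were -0.30 to 0.43 and -0.97 to 0.79. Its genes for subunits of the cytosolic chaperonin alone spanned -0.30 to 0.26 in SW1990 and -0.16 to 0.41 in PANC-1. The prefoldin genes PFDN1 (0.79) and PFDN2 (-0.97), named after their values were seen, were the calls past 1.5-fold in PANC-1, and 0 passed in SW1990. CCT5, a subunit of the cytosolic chaperonin, had 0.04 and -0.14, and CCT7, another subunit, had -0.30 and -0.04. Both turned in PANC-1 on FPKM (0.08 and 0.20). Of 9 other genes listed with the small heat shock proteins, 1 was tested in SW1990 and 2 in PANC-1, and HSPB11 had 0.09 and 0.43. HSPB8 was listed at 0 FPKM in SW1990 and had -0.44 in PANC-1.

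In PANC-1, several genes of the ER stress response fell together with HSPA5, while other ER chaperones did not. Of 20 genes for ER chaperones and the unfolded protein response, 3 passed 2-fold in PANC-1, all of them lower (background 4.7%), and 0 passed in SW1990 (background 4.13%). TRIB3, a pseudokinase gene induced in prolonged ER stress, was at 24.5 and 19.8 FPKM in SW1990 and at 65.2 and 17.3 FPKM in PANC-1 (log2 fold changes -0.29 and -1.97). DDIT3 (CHOP), a transcription factor of the same branch, was at 5.27 and 6.64 FPKM in SW1990 and at 49.2 and 20.8 FPKM in PANC-1 (0.19 and -1.27). As for HSPA5, the unirradiated PANC-1 library was the high one for both genes. ERN1 (IRE1), an ER stress sensor, had 0.30 in SW1990 and -1.07 in PANC-1 on counts, and -0.19 and -0.55 on FPKM. With total counts ERN1 had -0.98 in PANC-1, so that TRIB3 and DDIT3 alone passed 2-fold there under every scaling.

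With the 1.5-fold limit, 6 genes of the ER list were lower and 1 was higher of 20 in PANC-1 (11.7% of all genes in either direction), and 0 were lower and 1 was higher in SW1990 (9.26% of all genes). The number lower in PANC-1 was 5 with total counts and 3 on FPKM, where TRIB3, DDIT3 and ATF4 passed and ERN1, ATF6 and SEL1L did not. Its median was -0.13 in PANC-1 and 0.08 in SW1990. The other 3 lower genes were ATF4 (-0.70), ATF6 (-0.73, and -0.57 on FPKM) and SEL1L (-0.62, and -0.57 on FPKM), and the higher one was SDF2L1 (0.66), all 4 named after their values were seen. HYOU1, an ER relative of HSP110, was at 110 and 122 FPKM in SW1990 and at 167 and 107 FPKM in PANC-1 (0.28 and -0.83), so that it had the same order of libraries as HSPA5 in PANC-1. In contrast, HSP90B1, the ER form of HSP90, had -0.03 and 0.06 (0.27 on FPKM in SW1990), CALR, a calcium-binding chaperone of glycoproteins, had 0.15 and -0.02, and P4HB, a disulfide isomerase, had 0.13 and -0.08. XBP1, a transcription factor activated by ERN1, was the gene past 1.5-fold in SW1990 (0.81, and -0.09 in PANC-1) and is likewise named after its values were seen.

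**Figure D1:**
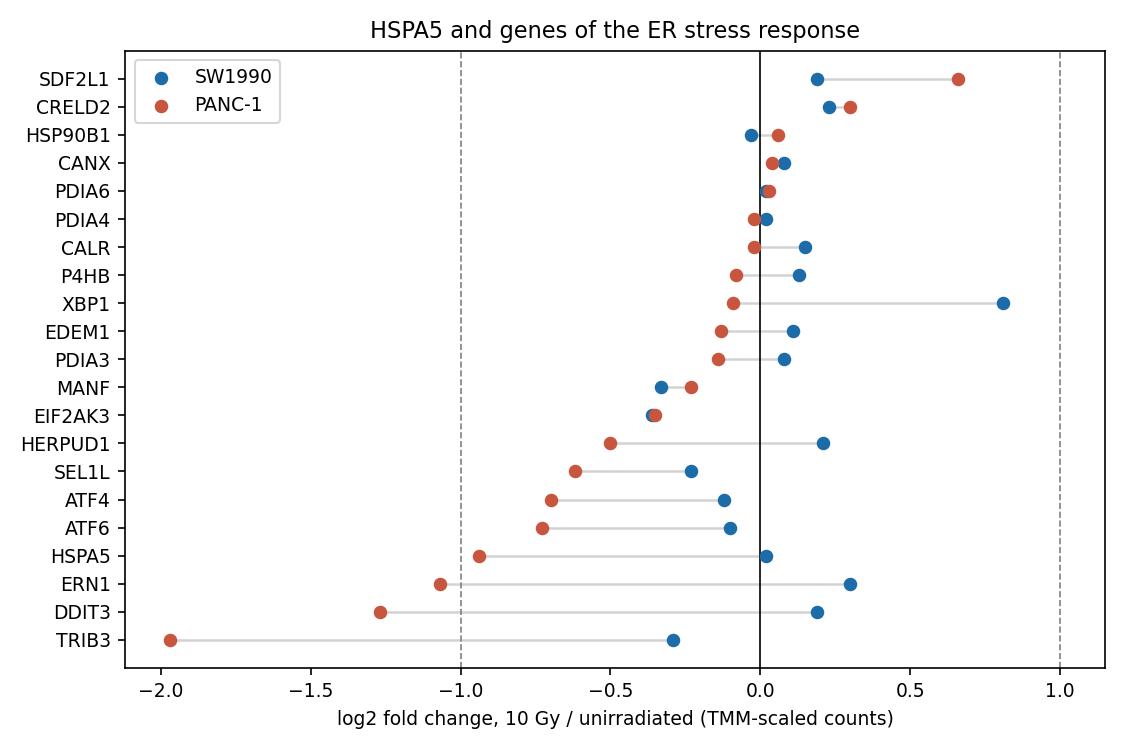
The log2 fold change after 10 Gy of HSPA5 and of the 20 genes of the ER list in SW1990 (blue) and PANC-1 (red), ordered by the PANC-1 value; dashed lines mark 2-fold. TRIB3, DDIT3, ERN1 and HSPA5 are lowest in PANC-1 (-1.97, -1.27, -1.07 and -0.94), whereas HSP90B1 and CALR lie near 0 (0.06 and -0.02).

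Mitochondrial chaperones and proteases had medians of -0.17 in SW1990 and -0.13 in PANC-1 over 12 genes. Of these genes, 0 passed 2-fold in either line (4.13% and 4.7% of all genes). HSPA9 (mortalin), the mitochondrial HSP70, was at 215 and 190 FPKM in SW1990 and at 289 and 197 FPKM in PANC-1 (-0.18 and -0.70). It fell past 1.5-fold in PANC-1 on counts but not on FPKM (-0.55). Its exchange factor GRPEL1, named after its values were seen, passed on both (-0.88 and -0.74), and HSPD1 passed on neither. CLPB, a mitochondrial disaggregase gene, passed 1.5-fold upward in PANC-1 (0.59, but 0.56 with DESeq2 size factors), and DNAJA3 passed it downward in SW1990 (-0.64). That makes 1 higher and 2 lower of 12 in PANC-1 (11.7% of all genes in either direction). In SW1990 it makes 0 and 1 (9.26% of all genes). CLPB is also named after its value was seen. TRAP1, the mitochondrial HSP90, had 0.10 and 0.00.

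The member with the largest mean absolute log2 fold change over the lines was HSPA1B, and the genes most like it were looked for by the distance of centred log2 CPM (counts per library total, TMM-scaled) over the 4 libraries, among 10160 genes. The nearest were PLPP2 (distance 0.055), FHOD1 (0.0557) and FP671120.1 (0.0786). PLPP2, a lipid phosphatase gene, had 1339 and 1173 counts in SW1990 and 766 and 1333 counts in PANC-1. FHOD1, a formin gene, had 842 and 751 counts in SW1990 and 474 and 803 in PANC-1. Like HSPA1B, both were lowest in unirradiated PANC-1, a likeness that rests on 4 libraries and is given as a description.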

How the data were processed

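Per the labels and the study's methods, reads were trimmed with Trimmomatic 0.36, aligned with HISAT2 2.0 (GRCh38) and quantified with StringTie 1.3.3b. The authors deposited raw read counts and FPKM values per gene in 1 table of 59263 rows. The labels describe removal of rRNA as well as an mRNA library kit. The tool that made the counts is not given in the sources used here. FPKM, per the authors' methods, is normalized for transcript length and library size. Gene IDs were matched to GENCODE 29 (57836 of 58174), and 27 symbols stored as dates were restored. The 1089 rows without a gene ID (0.453% to 0.635% of counts) were left out.

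Within a line, counts of genes that reached an FPKM of 1 in either library were compared with edgeR 4.0.16 (exactTest at dispersion 0, values below 0 after equalising library sizes set to 0), TMM scaling and Benjamini-Hochberg adjustment. Calls needed q below 0.001 and a fold change above 2, with 0 set to 0.01. A joint model of both lines used edgeR's quasi-likelihood test (line and treatment as terms, filterByExpr, adjusted p below 0.05). DESeq2 1.42.0, other scalings, filters, fold limits and assumed coefficients of variation of 0.1 and 0.4 served as alternatives. The fits were tested on simulated data. The members and the 9 related lists were chosen with earlier results of these data known. Of the lists, genes called in a line and the 2 with the highest mean FPKM are named; others are marked. Promoters came from RefSeq (GRCh38.p14).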

Additional observations from a re-analysis of the deposited data

Results flagged for a closer look

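In 4 members, the counting intervals of the change after radiation lay on opposite sides of 0 in the 2 lines, below 0 in SW1990 and above 0 in PANC-1. The difference in log2 fold change, PANC-1 minus SW1990, was 1.04 for HSPA1A, 1.05 for HSPA1B, 0.58 for HSPB1 and 0.24 for HSP90AA1. These intervals cover counting error only and are narrow at high counts, so that small changes such as those of HSP90AA1 (-0.09 and 0.15) also qualify. The share of all genes with intervals placed in this way was not counted, so the pattern sets no member apart from other genes. With 1 library per line and treatment, the difference itself was not tested. HSPA1A and HSPA1B share most of their sequence and are not separate evidence.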

How the results depend on the processing

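Of 74 alternative values of the members' changes, 69 kept their direction and their side of the 2-fold threshold, and the largest move was 0.15 on the log2 scale. Those that turned were small: HSPA5 in SW1990 (-0.01) and HSP90AB1 and HSPD1 in PANC-1 (0.09 and 0.07) with total counts, HSP90AB1 in PANC-1 from FPKM (0.08) and HSPH1 in SW1990 with DESeq2 size factors (0.00). With an assumed coefficient of variation of 0.4, the genes called fell from 650 to 15 in SW1990 and from 712 to 10 in PANC-1, and 0 of the 3 members past 1.5-fold in PANC-1 remained, a setting applied to the members after seeing the data. On FPKM, 4 members passed 1.5-fold, since HSPB1 moved from 0.48 to 0.60. Among the related lists, compared under other scalings after seeing the data, the ER genes lower past 1.5-fold in PANC-1 went from 6 to 3 on FPKM. With a fold limit of 1.5, 1456 and 1776 genes were called. The radiation term called 38 genes with DESeq2's Wald test and 0 with edgeR. Depth was high for the members, whose lowest count was 1970 (HSPB1 in unirradiated PANC-1). No library could be left out, since a condition has 1 library and 3 libraries leave the joint fit no residual degree of freedom. The labels give no replicate numbers, and the joint model pairs the libraries by line.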
